A study of Homo sapiens with 9 samples.

Results

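Human chromosome 19 carries a large family of genes named ZNF and a number, which encode proteins with tandem zinc fingers, and 186 of them were examined here in WiDr colon cancer cells. The members were the protein-coding genes of chromosome 19 with such a name, listed in both deposited tables, with a mean of at least 10 raw reads over the 3 control libraries. They made up 186 of the 217 chromosome 19 genes of this kind in either table, and 186 of 25159 genes in all. The other 31 fell below that mean or were listed in 1 table only. Because the control counts chose the members, their level in control cells is a description and no finding.

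WiDr is a human colon adenocarcinoma line with a mutant p53 gene, and all cultures were of this 1 line. The cells were transfected for 24 h with 100 nM of a control siRNA, of LIMp27 siRNA-1 or of LIMp27 siRNA-2. LIMp27 is a long noncoding RNA, listed in the tables as LINC01356, and both siRNAs are directed against it. Each of the 3 groups had 3 strand-specific libraries of total RNA, which a figure legend of the study calls biological repeats. No label ties the 3 to separate cultures, so p-values measure only the spread between these libraries, which may be technical.

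A C2H2 zinc finger is a short fold that holds a zinc ion between a pair of cysteines and a pair of histidines and can contact a few bases of DNA. Many proteins of the chromosome 19 family join a run of such fingers to a KRAB domain, which recruits TRIM28 (KAP1), and through it the histone methyltransferase SETDB1 and HP1 proteins, to silence chromatin. Many of these proteins bind retrotransposons, and many of the genes lie in clusters that grew by tandem duplication. Of the members, 104 lie on the plus strand and 82 on the minus strand.

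Neighbouring fingers are joined by a short conserved linker, threonine-glycine-glutamate-lysine-proline, which follows the last histidine of a finger. At least 1 such linker was read in the coding sequence of 155 of 186 members, with a median of 5 and at most 24 in a gene. The first linker of 8 members that the results below turn on is printed with its 15 linker bases in capitals, the histidine codon before them and the start of the next finger after them, as an element found in most of the members. All lie in coding exons, read from GENCODE 29 on GRCh38, on the strand given.
ZNF681 at chr19:23744530-23744556, minus strand: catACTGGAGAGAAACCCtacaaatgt
ZNF100 at chr19:21727523-21727549, minus strand: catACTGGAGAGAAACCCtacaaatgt
ZNF708 at chr19:21294372-21294398, minus strand: catACTGGAGAAAAACCCtacaaatgt
ZNF253 at chr19:19891827-19891853, plus strand: catACTGGAGAGAAACCTtacagatgt
ZNF91 at chr19:23362091-23362117, minus strand: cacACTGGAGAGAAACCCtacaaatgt
ZNF69 at chr19:11904953-11904979, plus strand: cacACTGGAGAGAAACCCtatgcttgt
ZNF569 at chr19:37414010-37414036, minus strand: catACTGGAGAGAAGCCCtatgaatgt
ZNF614 at chr19:52016563-52016589, minus strand: catACAGGGGAGAAACCCtatatatgc
ZNF681 and ZNF100 had the same 27 bases. The 15-base stretch most widely shared among the members' coding sequences, atactggagagaaac, covers most of this linker and was found in 77 of 186 members (41.4%) at 305 places. It was found in 95 of 19498 other coding genes (0.487%), and 83 of those 95 were ZNF genes. The stretch was chosen from the members' own sequences, so these shares are a description.

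How far such repeats could mix the members' reads was measured on their transcripts. Of 186 members, 96 had no 100-base stretch in common with the transcripts of another gene. In 9 members fewer than 80% of 100-base stretches were their own, among them ZNF320 (28.4%, shared with ZNF468), ZNF490 (40.7%), ZNF468 (48.0%) and ZNF724 (58.1%), and their counts are uncertain. Another gene overlapped 80 members on the same strand and 100 on the opposite strand. The sources used here do not say whether the authors counted by strand, so in an overlapping pair the reads of each gene cannot be told apart.

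Between 14361629 and 21524623 reads were assigned to genes in a library, and the members took 0.211 to 0.228% of them with control siRNA, 0.249 to 0.258% with siRNA-1 and 0.261 to 0.268% with siRNA-2. LINC01356 had 0, 0 and 2 reads with control siRNA, 0 in each siRNA-1 library and 0, 2 and 1 with siRNA-2, too few to check the knockdown. Of the markers of colon epithelium, EPCAM stood at 569 to 702 FPKM and KRT20 at 141 to 350, while CDX2 (0.301 to 0.922) and CDH17 (0 to 0.0522) were near 0 and CDX1 was not listed. The summed FPKM of this marker list was 10940 to 11520 with control siRNA, 8351 to 8658 with siRNA-1 and 7130 to 7945 with siRNA-2, and its part in the results was not tested. Markers of leukocytes, fibroblasts and endothelium each stayed at or below 1.25 FPKM. In bulk RNA, fewer expressing cells and less RNA per cell cannot be told apart.

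The members were expressed at low levels. Their median in control cells was 4.47 FPKM (counts per kilobase of transcript, scaled to the size of the library), against 12.35 for all genes tested with siRNA-1, and it ranged from 0.277 FPKM for ZNF837 to 70.6 ± 0.638 FPKM (SD, n = 3) for ZNF146, which encodes a protein made almost entirely of fingers. ZNF146 was followed by ZNF787 at 56.7 ± 3.26, ZNF614 at 32 ± 0.957, ZNF444 at 31.7 ± 1.86 and ZNF432 at 28.5 ± 3.53 FPKM. ZNF146 lay above ZNF787 beyond the spread of the libraries, and ZNF614, ZNF444 and ZNF432 lay within each other's spread. A median of 12 fingers was read in the members' proteins (0 to 31, the most in ZNF91), and 138 of 186 carried a KRAB signature (a tyrosine, a valine-methionine pair and a glutamate at fixed spacing) in their first 150 residues. Their transcripts had a median GC content of 42.4% against 48.5% for all genes tested, while the 300 bases around the start of 165 members held a median of 20 CpG pairs against 14 over all promoters in the RefSeq table.

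Just inside the count threshold were ZNF837 with 10, 11 and 9 control reads, ZNF490 with 15, 10 and 10, and ZNF233 with 21, 8 and 8. Just outside were ZNF730 with 12, 11 and 4, ZNF582 with 11, 5 and 11, and ZNF382 with 8, 4 and 14. ZNF730, on the excluded side, had 20, 31 and 27 reads with siRNA-1 and 25, 24 and 26 with siRNA-2. All 186 members passed the filter on low counts in each comparison.

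The first comparison asked what LIMp27 siRNA-1 did to these genes. More members rose than fell: 66 were called higher and 18 lower, and 102 did not pass the test. The genes called higher made up 35.5% of the members, against 26.5% of all 14347 genes tested, and those called lower 9.68%, against 28.3% (54.8% of all genes were called in either direction). The members' median log2 fold change was 0.135, against 0.000937 over all genes, and ranged from -1.34 to 1.88. Summed over the members, the libraries held 2215, 2201 and 2395 CPM (read counts scaled to a common library size with TMM factors) with control siRNA and 2485, 2522 and 2432 with siRNA-1. All 3 siRNA-1 libraries lay above all 3 controls, at 109% of the control mean on average, with the third control library nearest to them. Without that library the median log2 fold change was 0.219, and with offsets for GC content and length it was 0.222.

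Among the members that rose with siRNA-1, ZNF836 and ZNF69 had the largest changes of those with at least 50 normalised counts and groups that did not overlap. ZNF836, with 24 fingers, stood at 2.83, 1.82 and 3.32 CPM with control siRNA and at 7.21, 6.52 and 5.85 with siRNA-1 (log2 fold change 1.28 ± 0.18 SE, adjusted p = 8.39e-07). ZNF69 stood at 2.54, 2.73 and 2.14 CPM with control siRNA and 5.38, 5.64 and 5.21 with siRNA-1 (1.13 ± 0.18, adjusted p = 3.54e-06). In both genes every treated library was above every control. ZNF428 and ZNF579, which have 1 and 8 fingers and no KRAB signature, rose from far higher levels. ZNF428 went from 24.1, 29.2 and 24.4 CPM to 47.1, 44.8 and 49.1 (0.87 ± 0.07, adjusted p = 2.65e-11), and it overlaps SRRM5 on the opposite strand. ZNF579 went from 20.8, 23.0 and 19.8 CPM to 40.7, 36.8 and 37.3 (0.86 ± 0.07, adjusted p = 5.96e-11). ZNF302, ZNF253, ZNF737, ZNF429 and ZNF681 rose by 0.81 to 1.01 on the log2 scale.

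The clearest fall with siRNA-1 was that of ZNF614, one of the most strongly expressed members. It stood at 67.1, 66.7 and 63.8 CPM with control siRNA and at 40.9, 35.8 and 36.9 with siRNA-1 (-0.80 ± 0.06, adjusted p = 2.90e-12). ZNF296 fell from 7.23, 7.90 and 7.77 CPM to 4.79, 4.33 and 4.4 (-0.76 ± 0.14, adjusted p = 4.13e-05). ZNF607 fell by 0.75 on the log2 scale, ZNF569 by 0.72, ZNF571 by 0.64, ZNF600 by 0.54 and ZNF283 by 0.53, each with no overlap between the groups. Of the 18 members called lower, 17 had at least 100 control reads on average. The exception was ZNF540, with 2.09, 2.01 and 2.25 CPM against 1.12, 0.887 and 0.544 (-1.34 ± 0.30, adjusted p = 0.000461), which overlaps ZNF571 on the opposite strand. Among the 64 members under 100 control reads, 22 were called higher and 1 lower (34.4 and 1.56%, against 26.5 and 28.3% of all genes tested). The control counts that set these members apart also enter the fold change, so these shares are a description.

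The second comparison asked the same of LIMp27 siRNA-2, with the same control libraries. The members again rose more often than they fell, with 83 called higher, 19 lower and 84 not passing the test. Of the members 44.6% were called higher, against 27.7% of all 14204 genes tested, and 10.2% lower, against 29% (56.7% in either direction). Their median log2 fold change was 0.24, against 0.0124 over all genes, and ranged from -0.816 to 2.12. The members' summed level was 2621, 2544 and 2628 CPM, and all 3 libraries lay above all controls, at 114% of the control mean on average.

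ZNF69 changed most among the named members, to 8.84, 7.06 and 7.78 CPM with siRNA-2 from 2.54, 2.73 and 2.14 (1.69 ± 0.18, adjusted p = 2.20e-09). ZNF836 reached 6.45, 7.89 and 9.14 CPM (1.54 ± 0.19, adjusted p = 7.38e-08). ZNF681 stood at 4.46, 3.83 and 5.07 CPM with control siRNA and 13.2, 11.8 and 12.2 with siRNA-2 (1.49 ± 0.14, adjusted p = 2.32e-10). These 3 genes did not overlap with control in any library. ZNF253, ZNF708 and ZNF100 rose by 1.32, 1.31 and 1.21 on the log2 scale. ZNF444, among the most strongly expressed members, went from 41.1, 43.6 and 39.1 CPM to 67.8, 71.2 and 60.2 (0.70 ± 0.07, adjusted p = 2.04e-09). ZNF358 had the largest change of all members with each siRNA, from 0.622, 1.03 and 0.957 CPM to 2.48, 3.55 and 3.49 with siRNA-1 and 3.75, 4.90 and 2.66 with siRNA-2 (1.88 and 2.12). It stood at 15 control reads on average and overlaps genes on both strands.

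ZNF507, which stands alone on its stretch of the long arm, fell most with siRNA-2. It stood at 39.2, 39.9 and 42.8 CPM with control siRNA and 23.2, 22.7 and 22.9 with siRNA-2 (-0.82 ± 0.08, adjusted p = 3.51e-10), and at 27.4, 29.3 and 31.5 with siRNA-1 (-0.46 ± 0.07, adjusted p = 1.63e-06). ZNF569 and ZNF529 each fell by 0.69 on the log2 scale, ZNF562 by 0.66, ZNF584 by 0.62 and ZNF561 by 0.58. ZNF146 went from 130, 130 and 129 CPM to 93.5, 97.1 and 98.4 (-0.42 ± 0.06, adjusted p = 1.96e-07), while with siRNA-1 it stood at 124, 139 and 127, and it overlaps ZNF565 on the opposite strand. Of the 64 members under 100 control reads, 26 were called higher and 0 lower in edgeR's test (40.6 and 0%). Of all genes tested, 27.7% were higher and 29% lower. At an unadjusted p under 0.05, 1 of the 64 was lower, and DESeq2 called 21 higher and 0 lower. Here too the control counts set these members apart and enter the fold change.

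The siRNAs were then compared with each other, on libraries that played no part in choosing the members. With siRNA-2, 42 members were higher than with siRNA-1 and 18 lower, and 126 did not pass the test. The share called higher, 22.6%, was near the 23.1% of all 14415 genes tested, and the share called lower was 9.68% against 22.4% (45.4% of all genes in either direction). The median log2 difference was 0.0972, against 0.0117 over all genes. ZNF91, which restrains SVA retrotransposons, stood at 13.1, 13.2 and 12.1 CPM with siRNA-1 and 21.9, 23.4 and 24.1 with siRNA-2 (0.87 ± 0.09, adjusted p = 2.61e-09). Its control libraries, at 12.6, 10.9 and 13.1 CPM, overlapped those of siRNA-1. ZNF93, which restrains L1 retrotransposons, had the same order, with 10.6, 10.5 and 10.9 CPM against 19.7, 15.8 and 17.7 (0.76 ± 0.10, adjusted p = 3.76e-07) and controls at 8.87, 11.7 and 10.1.

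ZNF708 was at 6.56, 7.25 and 6.98 CPM with siRNA-1 and 11.6, 11.8 and 11.8 with siRNA-2 (0.77 ± 0.12, adjusted p = 2.20e-06), both above its controls at 3.79, 4.86 and 5.63. ZNF614 was higher with siRNA-2, at 62.1, 57.1 and 51.6 CPM (0.61 ± 0.07, adjusted p = 3.77e-08), though these libraries too lay below control (-0.20, adjusted p = 0.0153). That fall with siRNA-2 was -0.03 with GC content and length offsets (adjusted p = 0.693), and it did not pass without LIMp27 siRNA-2 replicate 3 or control replicate 1 (adjusted p = 0.0715 and 0.0598). ZNF428 and ZNF146 were lower with siRNA-2 than with siRNA-1, by 0.57 and 0.42 on the log2 scale. In ZNF581 the siRNAs were called in opposite directions. It stood at 20.8, 22.2 and 21.7 CPM with control siRNA, 18.6, 17.4 and 19 with siRNA-1 and 25, 29.7 and 25.7 with siRNA-2, so that no groups overlapped (-0.23, 0.32 and, between the siRNAs, 0.56 ± 0.09, adjusted p = 3.48e-06). ZNF581 overlaps ZNF580 on the same strand, and ZNF580 was called higher with siRNA-1 (0.43, adjusted p = 0.00605). The fall of ZNF581 with siRNA-1 did not pass with DESeq2 (adjusted p = 0.0718), without LIMp27 siRNA-1 replicate 2 (0.0811) or without control replicate 2 (0.0558), and its rise with siRNA-2 did not pass with GC content and length offsets (0.115), while the difference between the siRNAs passed in every fit run. ZNF540 had the largest difference between the siRNAs, 1.49 ± 0.31, with 1.90, 2.29 and 2.86 CPM with siRNA-2.

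Along the chromosome the members fell into 15 blocks, where a block ends when the next gene starts more than 1 Mb further on. The 10 blocks with at least 5 members held 179 of 186, and the smaller ones 1 or 2 each. Short-arm members, which start before 26 Mb, were called higher in 25 of 62 cases with siRNA-1 and 34 of 62 with siRNA-2, and lower in 2 and 3. The shares were 40.3 and 54.8% higher, and 3.23 and 4.84% lower. On the long arm 41 of 124 members were higher and 16 lower with siRNA-1 (33.1 and 12.9%). With siRNA-2, 49 were higher and 16 lower (39.5 and 12.9%). Of all genes tested, 26.5% were higher and 28.3% lower with siRNA-1, and 27.7 and 29% with siRNA-2. The members' medians were 0.263 and 0.386 on the short arm and 0.109 and 0.202 on the long arm, with siRNA-1 and siRNA-2. Block 5, described below, held 15 of the 25 and 20 of the 34 short-arm members called higher. The arms were not tested against each other, with or without that block.

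Block 5, from ZNF101 to ZNF254 at 19.7 to 24.1 Mb on the short arm, held 25 members, and 21 of them carried the KRAB signature. With siRNA-1, 15 of its 25 members were called higher (60%, against 26.5% of all genes tested) and 0 lower. With siRNA-2, 20 were called higher (80%, against 27.7%) and 0 lower. At an unadjusted p under 0.05 there were still 0 lower with edgeR, and DESeq2 called 11 and 19 higher and 0 lower. Without LIMp27 siRNA-1 replicate 2, 10 were higher with siRNA-1. The medians were 0.324 and 0.696 on the log2 scale. Among the 161 members outside it, 51 were higher and 18 lower with siRNA-1 (31.7 and 11.2%). With siRNA-2, 63 were higher and 19 lower (39.1 and 11.8%), and the medians were 0.127 and 0.202. Between the siRNAs, 13 of the 25 were higher with siRNA-2 and 2 lower (52 and 8%). Of the 161 others, 29 were higher and 16 lower (18 and 9.94%), against 23.1 and 22.4% of all genes tested in that comparison. The block was singled out after its values were seen, and these counts are a description.

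The block's summed level was 187.4, 190.0 and 207.6 CPM with control siRNA, 252.1, 269.9 and 247.3 with siRNA-1, and 321.7, 306.0 and 332.5 with siRNA-2, so that the 3 groups did not overlap. As a share of the control mean this was 131.5% ± 6.11 (SD, n = 3) and 164% ± 6.83. The order of the groups was the same in ZNF681, ZNF708, ZNF100 and ZNF253. ZNF100 stood at 7.51, 8.99 and 11.8 CPM, then 15.8, 16.1 and 14.6, then 20.8, 21.5 and 22.9. ZNF253 stood at 5.14, 6.93 and 6.70 CPM, then 12.7, 13.6 and 9.25, then 15.7, 15.3 and 15.5. ZNF675, whose product binds the signalling adaptor TRAF6, stood at 7.57, 7.48 and 7.09 CPM, then 9.16, 10.5 and 9.34, then 14.5, 14.3 and 16.0. In each of these 5 genes the direct comparison of the siRNAs was called as well, though that of ZNF253 did not pass without LIMp27 siRNA-1 replicate 3 (0.25, adjusted p = 0.0836).

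The same order held in ZNF486 and ZNF493, with groups that did not overlap and each of the 3 comparisons called. Some other members of the block did not share it. ZNF91, ZNF93, ZNF431, ZNF676 and ZNF492 were called higher with siRNA-2 but not with siRNA-1, and each was called in the direct comparison. ZNF85 was likewise called with siRNA-2 alone (0.83, adjusted p = 0.000834), but the direct comparison did not pass (adjusted p = 0.0864). ZNF492 is at 81.6% unique stretches, and it stood at 3.90, 3.46 and 3.77 CPM with control siRNA, 2.96, 3.24 and 3.72 with siRNA-1 and 6.50, 5.79 and 5.59 with siRNA-2. ZNF738 went the other way, from 13.4, 14 and 14.2 CPM to 21.7, 23.8 and 21.9 with siRNA-1 and 20.2, 17.6 and 17.4 with siRNA-2 (0.70 and 0.42, and between the siRNAs -0.27, adjusted p = 0.0133). ZNF101, the first gene of the block, was called higher with siRNA-1 (0.29, adjusted p = 0.0323) and had a log2 fold change of -0.06 with siRNA-2 (adjusted p = 0.722). ZNF90, ZNF66, ZNF14 and ZNF724 passed the test with neither siRNA, at log2 fold changes of -0.30 to 0.25 with siRNA-1 and 0.10 to 0.36 with siRNA-2, and ZNF724 is one of the members with uncertain counts. ZNF14 was nonetheless higher with siRNA-2 than with siRNA-1 (0.67, adjusted p = 0.0052).

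**Figure D1:**
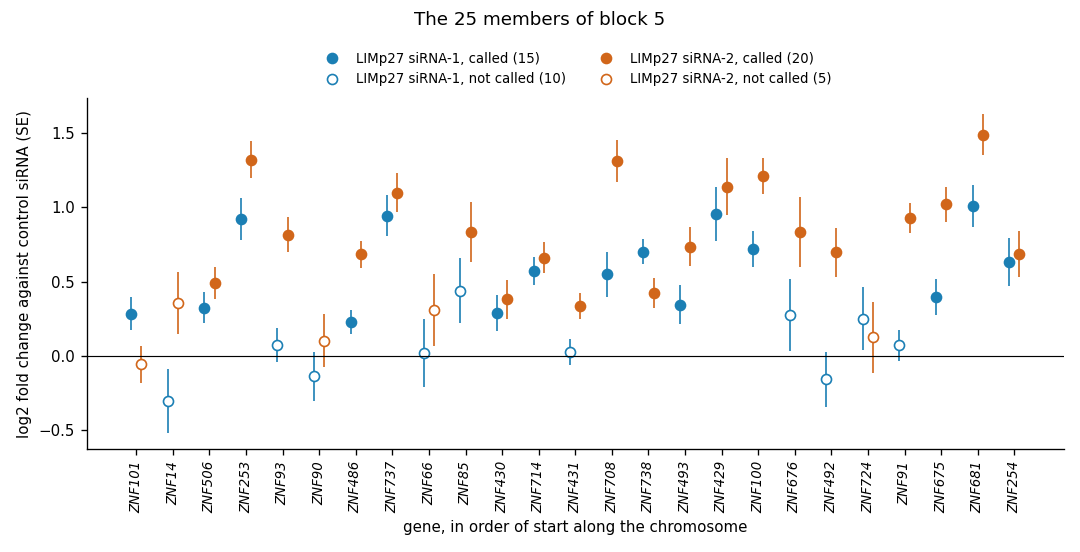
Log2 fold change against control siRNA with its SE (vertical axis) of the 25 members of block 5 in chromosomal order, for siRNA-1 (blue) and siRNA-2 (orange), with called genes filled. The filled points, 15 with siRNA-1 and 20 with siRNA-2, all lie above 0, and ZNF681 is the highest with either siRNA.

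In block 13, from ZNF175 to ZNF761 on the long arm, 12 of 28 members were higher and 2 lower with siRNA-1. With siRNA-2, 18 were higher and 3 lower. The shares called higher were 42.9 and 64.3%, against 26.5 and 27.7% of all genes tested. Its summed level was 451.9, 440.2 and 505.9 CPM with control siRNA, 526.8, 525.3 and 499.1 with siRNA-1 and 596.5, 562.1 and 600.1 with siRNA-2. The siRNA-1 libraries overlapped the third control library, and the siRNA-2 libraries did not. ZNF614, which fell with siRNA-1, lies in this block next to ZNF615, which rose with each siRNA. ZNF615 stood at 16.4, 14.95 and 19.5 CPM with control siRNA, 24.9, 22.7 and 25.1 with siRNA-1 and 30.8, 29.8 and 29.3 with siRNA-2. ZNF616 and ZNF836 lie a few genes further on and rose by 0.88 and 1.28 on the log2 scale with siRNA-1. ZNF468 was called higher with each siRNA (0.41 and 0.76), and ZNF320, which shares long stretches with it, had 0.43 and 0.61 and passed neither test (adjusted p = 0.233 and 0.0759).

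Block 8, from ZNF565 to ZNF573, held rises and falls side by side. With siRNA-1, 6 of its 22 members were higher and 7 lower (27.3 and 31.8%), near the 26.5 and 28.3% of all genes tested. With siRNA-2, 4 were higher and 5 lower (18.2 and 22.7%), against 27.7 and 29% of all genes. Its summed level was 99.8% ± 4.21 of the control mean with siRNA-1 and 89.1% ± 1.80 with siRNA-2 (SD, n = 3). With siRNA-2 the sum was 296.3, 286.8 and 297.7 CPM, against 315.5, 324.9 and 348 with control siRNA. ZNF146 alone went from a mean of 129.65 CPM with control siRNA to 96.33 with siRNA-2. The median log2 fold change of the 22 members was 0.029 with siRNA-1 and 0.017 with siRNA-2. With siRNA-2, 11 of them lay above 0 and 11 below. ZNF569 fell from 9.49, 9.72 and 11.4 CPM to 6.74, 6.0 and 5.85 with siRNA-1 and 6.30, 5.79 and 6.82 with siRNA-2. ZNF570, which overlaps ZNF569 on the opposite strand, was called higher with siRNA-1 (0.82, adjusted p = 0.0150). ZNF260 rose with each siRNA (0.35 and 0.49), and ZNF529 fell with each (-0.30 and -0.69). Its fall with siRNA-1 was -0.14 with GC content and length offsets (adjusted p = 0.195), and it did not pass without LIMp27 siRNA-1 replicate 3 or control replicate 3 (adjusted p = 0.0541 and 0.0639). The run of ZNF540, ZNF571 and ZNF607 was lower with siRNA-1, and of these only ZNF607 was also called lower with siRNA-2 (-0.41, adjusted p = 0.00582), and without LIMp27 siRNA-2 replicate 1 that call did not pass (adjusted p = 0.0561).

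In block 3, ZNF653 to ZNF791, 6 of 18 members were higher with siRNA-1 and 7 with siRNA-2. These shares were 33.3 and 38.9%, against 26.5 and 27.7% of all genes tested. In this block 0 were lower with either siRNA by edgeR, also at an unadjusted p under 0.05, and by DESeq2. Its level reached 130.0% ± 5.33 and 136% ± 6.83 of the control mean. Block 14, ZNF628 to ZNF444, has no KRAB signature in any of its 9 members and the highest GC content, 64.9% in the median. There 5 members were higher and 1 lower with siRNA-1, and 6 higher and 0 lower with siRNA-2 (0 also at an unadjusted p under 0.05 and by DESeq2). The shares called higher were 55.6 and 66.7%. Its summed level was 223, 226.9 and 204.6 CPM with control siRNA, 256.2, 243.3 and 258.2 with siRNA-1 and 288.7, 316.6 and 270.6 with siRNA-2. As in block 5, the 3 groups did not overlap in block 14. ZNF524 of this block stood at 12.7, 12.1 and 11.1 CPM with control siRNA, 15.5, 14.5 and 14.4 with siRNA-1 and 20.2, 22.8 and 19.99 with siRNA-2. Block 2, ZNF557 to ZNF846, was the one large block besides block 8 with a summed level below control with siRNA-2, at 87.7% ± 1.62. In it 4 of 13 members were higher and 2 lower with siRNA-1 (30.8 and 15.4%, against 26.5 and 28.3% of all genes). With siRNA-2, 4 were higher and 3 lower (30.8 and 23.1%, against 27.7 and 29%), with a median log2 fold change of 0.066. Block 2 holds ZNF561 and ZNF562, which fell with each siRNA (ZNF562 with siRNA-1 at an adjusted p of 0.11 with GC content and length offsets). It also holds ZNF121, which fell with siRNA-2 (-0.41, adjusted p = 1.09e-05) from a mean of 70.8 to 52.8 CPM. In block 1, 0 of 5 members were called with siRNA-1 (0 also at an unadjusted p under 0.05 and by DESeq2) and 3 with siRNA-2, all higher, ZNF77 among them (0.58, adjusted p = 0.000585).

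Blocks 7, 11 and 15 completed the set. In block 7, 3 of 5 members were higher with siRNA-1 and 2 with siRNA-2, with ZNF302 called in both (0.81 and 0.62) and ZNF599 lower with siRNA-2 than with siRNA-1 (-0.84, adjusted p = 0.000858). In block 11, 6 of 21 were higher and 2 lower with siRNA-1 (28.6 and 9.52%), and 7 higher and 2 lower with siRNA-2 (33.3 and 9.52%). ZNF233 of this block, one of the members nearest the count threshold, went from 1.19, 0.486 and 0.45 CPM to 2.07, 1.25 and 1.90 with siRNA-1 and 1.90, 1.59 and 1.64 with siRNA-2. Of the 33 members of block 15, the largest, 9 were higher and 3 lower with siRNA-1 (27.3 and 9.09%). With siRNA-2, 11 were higher and 4 lower (33.3 and 12.1%). Of all genes tested, 26.5% were higher and 28.3% lower with siRNA-1, and 27.7 and 29% with siRNA-2. With siRNA-1 the shares called higher in blocks 11 and 15 were thus near that of all genes. ZNF544 rose with each siRNA (0.39 and 0.38), ZNF584 fell with each (-0.34 and -0.62), and ZNF837, nearest the count threshold, rose by 1.39 and 1.01. The rise of ZNF837 with siRNA-2 did not pass with DESeq2 (adjusted p = 0.125) or when any 1 of 5 libraries was left out, at adjusted p of 0.0513 to 0.256. Of the members alone or in pairs, ZNF780A was called lower with siRNA-2 (-0.43, adjusted p = 0.00468) and ZNF526 higher (0.28, adjusted p = 0.0217). With GC content and length offsets ZNF780A was at -0.22 (adjusted p = 0.126), and ZNF526 did not pass with DESeq2 (0.0871), without control replicate 3 (0.181) or without LIMp27 siRNA-2 replicate 2 or 3 (0.0557 and 0.0619). ZNF473, whose product acts in histone pre-mRNA processing, had -0.03 and -0.08, and ZNF333 had 0.50 and 0.55. ZNF473 and ZNF333 passed neither test.

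Members next to each other within a block formed 171 pairs. With siRNA-1, both were called in the same direction in 30 pairs and in opposite directions in 13. With siRNA-2, these numbers were 44 and 17, and between the siRNAs 15 and 5. Most called members were higher (66 against 18 lower with siRNA-1, 83 against 19 with siRNA-2). Pairs of members that are not neighbours would therefore often match too. Such pairs were not counted, and whether neighbours changed together was not tested. The longest run of neighbours called higher had 5 genes with siRNA-1, ZNF708 to ZNF100, and 11 genes with siRNA-2, ZNF85 to ZNF492, both in block 5. Between the siRNAs it had 4 genes, ZNF613 to ZNF614 in block 13.

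The members' structure was set beside the direction of change. With siRNA-2 the median number of fingers was 12 in the 83 members called higher, 9 in the 19 called lower and 12 in the 84 not called. Members with the KRAB signature were higher in 58 and lower in 15 of 138 cases with siRNA-2 (42 and 10.9%). Those without it were higher in 25 and lower in 4 of 48 (52.1 and 8.33%). With siRNA-1 these numbers were 44 and 15 of 138 (31.9 and 10.9%), and 22 and 3 of 48 (45.8 and 6.25%). Of all genes tested, 27.7% were higher and 29% lower with siRNA-2, and 26.5 and 28.3% with siRNA-1. Members with and without the signature were not tested against each other. Over the 186 members, which share libraries and many of which share sequence, Spearman's rho between the log2 fold change and the number of fingers was -0.0404 with siRNA-1 and 0.043 with siRNA-2. For GC content it was -0.0701 and -0.118. For the mean control count it was -0.272 and -0.214, and the control libraries enter both of those values, while for siRNA-2 against siRNA-1 it was -0.00645.

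ZNF genes of other chromosomes also rose more often than they fell. Of 215 such genes, 88 were higher and 34 lower with siRNA-1 (40.9 and 15.8%), and 80 higher and 33 lower with siRNA-2 (37.2 and 15.3%), with medians of 0.151 and 0.18. The coding genes of chromosome 19 without a ZNF number were higher in 265 and lower in 123 of 636 cases with siRNA-1 (41.7 and 19.3%). With siRNA-2 they were higher in 250 and lower in 138 of 632 (39.6 and 21.8%). Their medians were 0.124 with siRNA-1 and 0.111 with siRNA-2. Of all genes tested, 26.5% were higher and 28.3% lower with siRNA-1, and 27.7 and 29% with siRNA-2. The members' share called higher was 35.5% with siRNA-1, below those of both lists, and 44.6% with siRNA-2, above both. The rise was thus measured on other ZNF genes and on other genes of the chromosome too, and no test set the members apart from them. Of 8 zinc finger genes of chromosome 19 with other names, such as ZIK1 and ZSCAN22, 2 were higher and 1 lower with siRNA-1, and 4 higher and 2 lower with siRNA-2.

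The partners through which KRAB zinc finger proteins act were read from a list of 33 genes. With siRNA-1, 14 were higher and 9 lower, and with siRNA-2, 14 higher and 10 lower, with medians of 0.0601 and -0.0355 on the log2 scale. The share called higher was 42.4% with each siRNA, against 26.5 and 27.7% of all genes tested, and the shares called lower, 27.3 and 30.3%, were near the 28.3 and 29% of all genes. Most of the 33 stood above 12.35 FPKM in control cells, the median of all genes tested with siRNA-1. Genes with more reads pass the test at smaller changes, and the part of this in the share called higher was not tested. TRIM28, the corepressor that binds the KRAB domain, had -0.07 ± 0.05 SE with siRNA-1 (adjusted p = 0.194) and fell by 0.23 ± 0.05 with siRNA-2 (adjusted p = 0.000585). SETDB1, which methylates lysine 9 of histone H3, rose by 0.17 and 0.31. The HP1 genes differed among themselves. CBX5 rose with each siRNA (0.63 and 0.61), CBX3 fell with each siRNA (-0.74 and -0.29), and CBX1 rose with siRNA-1 and fell with siRNA-2 (0.34 and -0.73, and between the siRNAs -1.06, adjusted p = 1.56e-16). RBBP4, a histone-binding subunit of chromatin complexes, stood at a mean of 163 FPKM with control siRNA, 196 with siRNA-1 and 69.9 with siRNA-2 (0.18 and -1.31, and between the siRNAs -1.47, adjusted p = 5.31e-19). DNMT3A, a DNA methyltransferase, rose by 0.85 and 0.86.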

How the data were processed

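RNA-seq was analysed from WiDr cells with 3 libraries for each of 3 siRNA groups. Per the file headers the authors deposited raw read counts per gene, normalised values (a signal, counts divided by 1 size factor per library), FPKM, gene lengths, and the log2 fold changes and p-values of their own comparisons, which the authors made with each siRNA against control and which were not used. The submitters' notes name CASAVA and GRCh38, and the aligner, the counting program and their strand setting are not given in the sources used here. The size factor was checked to be 1 value per library, and the control columns were the same in both tables. FPKM served only for levels between genes and for markers.

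Counts were fitted on whole tables with edgeR 4.0.16 in R 4.3.3 (TMM, filterByExpr with a minimum count of 10, quasi-likelihood test without robust estimation), 6 libraries per comparison, with Benjamini-Hochberg adjustment over all tested genes and a threshold of 0.05. CPM used 1 TMM scale over all 9 libraries. The calculation was tested on simulated counts. Alternatives were DESeq2 1.42.0, RLE size factors, no filter, a replicate block, 1 fit over all libraries, GC content and length offsets, other member sets and each library left out. Library totals of 14361629 to 21524623 reads limit the members of lowest count.

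The members, blocks, gene lists and rule for named genes were chosen with earlier results of these data known. Its parts, for either siRNA, were the 6 strongest called rises and the 6 strongest called falls (at least 50 normalised counts, groups without overlap), the 4 largest each way with both siRNAs, the 5 smallest adjusted p-values between the siRNAs, members called in opposite directions, the 5 highest control FPKM, the leading member of each block, the 3 members nearest the count threshold on each side and up to 4 called partners. Members named outside it, such as ZNF358, ZNF540, ZNF492, ZNF738, ZNF101, ZNF675, ZNF615, ZNF524 and ZNF599, and the partners TRIM28, SETDB1 and CBX5, were chosen after their values were seen or for their role. Positions, transcripts and coding sequences came from GENCODE 29, and promoters from RefSeq. Fingers, linkers and KRAB signatures are letter patterns found by Biopython 1.88 and a search, not curated domains.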

Additional observations from a re-analysis of the deposited data

Results flagged for a closer look

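The changes with the siRNAs differed by the direct test of siRNA-2 against siRNA-1 in 19 of the 39 named members. The log2 difference (siRNA-2 minus siRNA-1) is given for each of the 19. Of all 14415 genes tested in this comparison, 45.4% were called in either direction. Because 5 of the named members were chosen by the smallest adjusted p-values of this same test, the count is a description. Of block 5, 6 were higher with siRNA-2, ZNF91 by 0.866, ZNF708 by 0.771, ZNF93 by 0.755, ZNF100 by 0.501, ZNF681 by 0.491 and ZNF253 by 0.411. Higher as well were ZNF614 by 0.610, ZNF69 by 0.568, ZNF581 by 0.557, ZNF526 by 0.467, ZNF77 by 0.411, ZNF607 by 0.347, ZNF444 by 0.308 and ZNF787 by 0.159. For ZNF614 and ZNF607 the higher value with siRNA-2 was a smaller fall, since both were below control with each siRNA. Of these differences, 4 did not pass when 1 library was left out. They were ZNF253 without LIMp27 siRNA-1 replicate 3 (0.247), ZNF77 without LIMp27 siRNA-1 replicate 1 (0.332) or LIMp27 siRNA-2 replicate 2 (0.335), ZNF607 without LIMp27 siRNA-1 replicate 2 (0.339) or 3 (0.274) or LIMp27 siRNA-2 replicate 2 (0.228), and ZNF787 without any 1 of the LIMp27 siRNA-1 libraries (0.126 to 0.181) or LIMp27 siRNA-2 replicate 2 (0.106). That of ZNF607 also did not pass with DESeq2 (0.341, adjusted p = 0.111) or with GC content and length offsets (0.305, adjusted p = 0.0634, and 0.299 with the replicate block as well, adjusted p = 0.0537), and that of ZNF787 with DESeq2 (0.151, adjusted p = 0.066) or no filter on low counts (0.150, adjusted p = 0.0706).

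Lower with siRNA-2 were ZNF428 (-0.568), ZNF146 (-0.422), ZNF529 (-0.385), ZNF562 (-0.371) and ZNF507 (-0.348). ZNF529, ZNF562 and ZNF507 were below control with each siRNA and further below with siRNA-2. ZNF146 was called lower than control with siRNA-2 alone, and ZNF428 was called higher than control with each siRNA, the call with siRNA-2 (0.29) not passing with GC content and length offsets (0.12), with DESeq2 (0.27), or without control replicate 1 (0.23) or 3 (0.24) or LIMp27 siRNA-2 replicate 1 (0.26) or 2 (0.18).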

How the results depend on the processing

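The counts of members called higher and lower kept their excess of higher over lower in every fit run. In the first comparison the median log2 fold change of 0.135 was 0.222 with GC content and length offsets and 0.226 with these offsets and the replicate block, and in the second the median of 0.24 was 0.315 and 0.320. With calls limited to absolute log2 fold changes of at least 0.5, there were 35 higher and 8 lower with siRNA-1, 55 and 6 with siRNA-2, and 17 and 4 between the siRNAs. Leaving out each library gave 53 to 73 higher, 17 to 20 lower and a median of 0.113 to 0.219 with siRNA-1, 68 to 85, 16 to 20 and 0.187 to 0.287 with siRNA-2, and 36 to 43, 11 to 20 and 0.083 to 0.129 between the siRNAs. The median of 0.219 came without control replicate 3 and the 11 without LIMp27 siRNA-1 replicate 2, and the cause was not tested. DESeq2 called 50 higher and 15 lower, 65 and 15, and 34 and 12. The replicate block gave 63 and 18, 87 and 20, and 42 and 18. Same-numbered libraries did not deviate together (correlations of -0.081 to 0.030, against -0.095 to 0.132 for different numbers). No pairing by number was seen, though these correlations cannot show whether same-numbered samples were handled together. Block 5, whose count under the other fits was added after seeing the data, had 10 to 16 members higher with siRNA-1, the 10 without LIMp27 siRNA-1 replicate 2, 19 to 20 with siRNA-2 and 12 to 14 between the siRNAs with a library left out. Counts under about 100 reads limit what can be called. Of the named members' values under the alternatives, 477, 458 and 461 kept their direction and side of the threshold with siRNA-1, siRNA-2 and between the siRNAs, 9, 35 and 15 were no longer called, 12, 10 and 7 were newly called, and 0 called values turned in sign, while 9, 4 and 24 values not called did.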
